A study of Homo sapiens with 4 samples.

Results

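Caspases, inhibitor of apoptosis proteins (IAPs), PARP and their partners were measured by reverse phase protein array (RPPA) in LN229 cells, an established human glioblastoma line. Members were taken by antibody name, as every antibody to total or cleaved caspase-3, caspase-7, caspase-8, PARP, PAR, XIAP, c-IAP2, Smac, RIP or RIP3, and 11 of the 440 antibodies of the panel matched. Of the caspases, the panel held cleaved caspase-3, cleaved caspase-7, cleaved caspase-8 and total caspase-8. It held 1 antibody named PARP and no antibody named for cleaved PARP, so these data give PARP levels but not PARP cleavage. Whether the PARP antibody also binds the cleaved fragment is not given in the sources used here. The groups were 2 untreated samples, labelled as 0 min, and 2 samples treated with 300 nM salmon calcitonin (sCT), a peptide ligand of the calcitonin receptor, for 60 min. All cells were LN229 with no genetic change named in the labels, and the submitters call the samples of a group biological duplicates. No untreated sample kept for 60 min was analysed here, so sCT and the time between the groups cannot be told apart. Each value is a linear relative level on a scale where every sample has a median near 1, and it compares samples for 1 antibody but not antibodies with each other.

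Apoptosis runs through proteases called caspases. An initiator such as caspase-8 is activated at death receptors and cuts executioners such as caspase-3 and caspase-7, which then cut many proteins, PARP among them. XIAP binds and blocks active caspases, c-IAP2 is a ubiquitin ligase that acts on RIP at the TNF receptor, and Smac is a mitochondrial protein that, once released, displaces IAPs from caspases. RIP (RIPK1) is a kinase at the branch between survival, apoptosis and necroptosis, and RIP3 (RIPK3) is its partner in necroptosis. PARP adds chains of poly(ADP-ribose), called PAR, to proteins at DNA breaks, and PARG removes them. The comparison asks whether this machinery differed between untreated cells and cells at an early time of sCT treatment, in a study of growth suppression by sCT.

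After sCT, RIP fell by 65.7%, XIAP fell by 36.3% and c-IAP2 fell by 12.9%. Cleaved caspase-7, PARP and PAR were higher by 29.0%, 26.5% and 16.6%. Cleaved caspase-3, cleaved caspase-8, total caspase-8, Smac and RIP3 did not pass the test, with differences between 3.83% and 11.7% above untreated cells. At an adjusted p of 0.05 in limma on log2 levels, 3 of these 11 were called lower and 3 higher. Over the whole panel 55.0% of antibodies passed, 33.6% lower and 21.4% higher, so the share of members called (6 of 11) was near that of the panel. The median log2 fold change was 0.14 over the 11 and 0.016 over all 440, and the median size of the change was 0.20 and 0.22. An unadjusted p of 0.05 was met by 9 of the 11 and by 62.5% of the panel. With an absolute log2 fold change of 0.58 required as well, RIP and XIAP remained, against 21.6% of the panel.

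**Figure D1:**
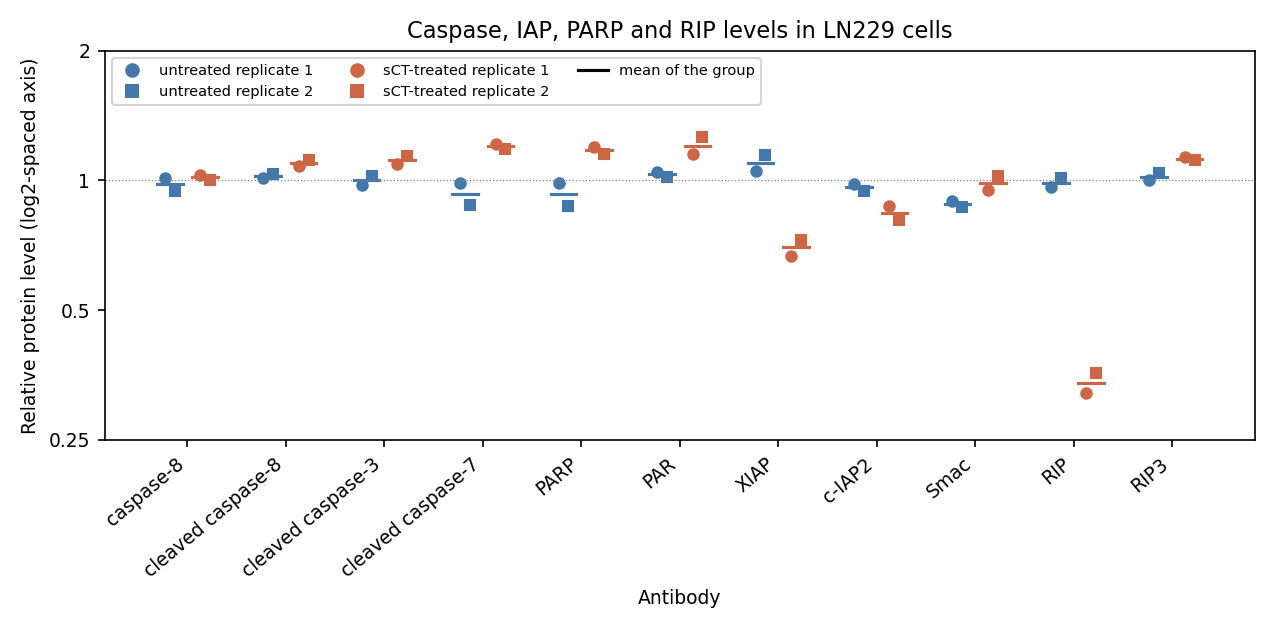
Relative level of each of the 11 antibodies (log2-spaced axis) in the 2 untreated samples (blue) and the 2 sCT-treated samples (orange), with circles for replicate 1, squares for replicate 2 and lines at the group means. RIP and XIAP fall clearly apart between the groups, caspase-8 overlaps, and the other antibodies differ by small amounts.

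The untreated and sCT-treated samples did not overlap for 10 of the 11 antibodies, 7 higher and 3 lower after sCT. Such separation was common, at 85.9% of the panel, with 43.0% higher and 43.0% lower. Replicates of the 11 antibodies lay within 1.13-fold of each other in untreated cells and within 1.11-fold after sCT. Over the panel, more than 1.5-fold separated the replicates of 7 antibodies in untreated cells and of 2 after sCT, and no member was among them. For 1 antibody, the smallest two-sided p that an exact permutation test of these 4 samples can reach is 0.333, so the adjusted p-values below rest on the spread that limma shares over the panel.

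RIP, the kinase of the TNF receptor complex, changed the most. Its level was 0.964 and 1.01 in the untreated samples and 0.320 and 0.357 in the sCT-treated samples. Both treated samples were thus far below both untreated ones. The log2 fold change was -1.55 (SE 0.070, 95% interval -1.73 to -1.36, adjusted p = 0.000169), from 0.987 ± 0.0332 to 0.339 ± 0.0259 (SD, n = 2 each), and it was the 27th lowest of the 440. With each sample left out in turn it stayed between -1.62 and -1.47 with an adjusted p of at most 0.00535. Quantile normalization, which forces the 4 samples to the same distribution, gave a smaller fall of -0.94 (adjusted p = 0.00192). Signal over background is unknown here, so a low RIP level cannot be told from background.

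RIP3, the necroptosis kinase that pairs with RIP, was not called. Its level was 1.0 and 1.04 in untreated cells and 1.13 and 1.11 after sCT. The log2 fold change was 0.14 (SE 0.047, 95% interval 0.017 to 0.26, adjusted p = 0.0590). The sCT-treated samples lay above the untreated ones, by an amount that did not pass the test, and the sign turned (-0.0067) when samples were centred on loading controls. RIP relative to RIP3, as a difference of log2 levels within each sample, was -0.053 and -0.041 in untreated cells and -1.82 and -1.64 after sCT. The change in this difference was -1.69 (exact permutation test, two-sided, p = 0.333, the smallest possible), and -1.08 under quantile normalization. MLKL, the pore-forming protein downstream of RIP3, was 0.811 and 0.868 in untreated cells and 0.755 and 0.806 after sCT (log2 fold change -0.10, adjusted p = 0.198).

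XIAP, the caspase-binding IAP, had levels of 1.05 and 1.15 in untreated cells and of 0.669 and 0.729 after sCT. Both treated samples were below both untreated samples, and replicates differed by 1.09-fold in each group. The mean fell from 1.10 ± 0.0667 to 0.699 ± 0.0423 (SD, n = 2), a log2 fold change of -0.65 (SE 0.071, 95% interval -0.84 to -0.46, adjusted p = 0.00197). The call held with each sample left out, with values between -0.71 and -0.59 and an adjusted p of at most 0.0219.

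c-IAP2, the ubiquitin ligase encoded by BIRC3, was at 0.983 and 0.945 in untreated cells and at 0.872 and 0.810 after sCT. The groups did not overlap, but the gap between them was small, and c-IAP2 lay inside the interquartile range of the panel, which ran from -0.39 to 0.17. Its log2 fold change was -0.20 (SE 0.058, 95% interval -0.35 to -0.046, adjusted p = 0.0397). This call was lost without any 1 of the 4 samples, with adjusted p of 0.138 without untreated replicate 1, 0.0856 without untreated replicate 2, 0.0644 without sCT replicate 1 and 0.176 without sCT replicate 2. It was lost under quantile normalization as well (-0.12, adjusted p = 0.143). XIAP relative to c-IAP2 within a sample was 0.097 and 0.28 in untreated cells and -0.38 and -0.15 after sCT, so XIAP was lower by a further 0.45 log2 units than c-IAP2 (change of -0.45, exact permutation test, two-sided, p = 0.333, the smallest possible).

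Smac, the mitochondrial antagonist of IAPs, was 0.898 and 0.866 in untreated cells and 0.948 and 1.02 after sCT. The treated samples were the higher ones, with a log2 fold change of 0.16 that did not pass the test (SE 0.058, 95% interval 0.0067 to 0.31, adjusted p = 0.0724). Quantile normalization gave 0.34 (adjusted p = 0.0124), which passed, and centring on loading controls gave 0.014 (adjusted p = 0.853). A total lysate gives the amount of Smac and not its place in the cell.

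**Figure D2:**
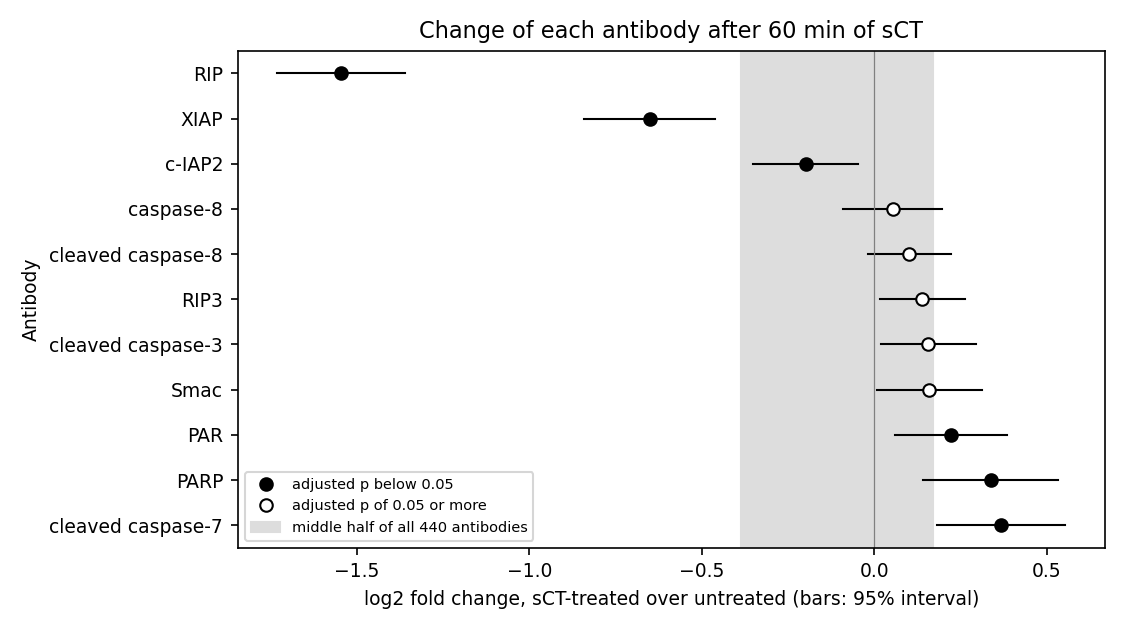
Log2 fold change of the 11 antibodies, sCT-treated over untreated, with 95% intervals from limma, filled where the adjusted p is below 0.05. The grey band is the interquartile range of all 440 antibodies, from -0.39 to 0.17. RIP at -1.55 and XIAP at -0.65 lie below the band, and PAR, PARP and cleaved caspase-7 lie above it.

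Among the caspases, cleaved caspase-7 was the one that passed the test. This executioner form was at 0.985 and 0.877 in untreated cells and at 1.21 and 1.18 after sCT. The treated samples were close to each other, and the untreated ones were further apart, at 1.12-fold. Its log2 fold change was 0.37 (SE 0.071, 95% interval 0.18 to 0.55, adjusted p = 0.0112), the 35th highest of the panel. Without sCT replicate 1 the adjusted p was 0.0788, and without sCT replicate 2 it was 0.0632.

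Cleaved caspase-3, the other executioner form, was at 0.975 and 1.03 in untreated cells and at 1.09 and 1.14 after sCT. The groups did not overlap, and the log2 fold change was 0.16 (SE 0.052, 95% interval 0.020 to 0.29, adjusted p = 0.0580). Its adjusted p was 0.0484 on linear levels and 0.0347 with trend and robust variance estimation. It was 0.115 after quantile normalization and up to 0.235 with a sample left out, and loading control centring brought the change down to 0.011 (adjusted p = 0.852). Total caspase-3 and total caspase-7 were not on the panel, so the cleaved forms of these proteins cannot be set against the intact ones.

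Caspase-8, the initiator at death receptors, was the only caspase with both forms on the panel. The total-protein antibody gave 1.01 and 0.947 in untreated cells and 1.03 and 1.002 after sCT. These samples overlapped, with a log2 fold change of 0.054 (95% interval -0.090 to 0.20, adjusted p = 0.423). For the cleaved form the levels were 1.01 and 1.04 in untreated cells and 1.08 and 1.11 after sCT, a log2 fold change of 0.10 (95% interval -0.019 to 0.22, adjusted p = 0.119). Both values turned sign under loading control centring, to -0.092 and -0.045. Cleaved relative to total caspase-8 within a sample was -0.0030 and 0.13 log2 units in untreated cells and 0.0675 and 0.15 after sCT. The 2 groups overlapped in this difference, which changed by 0.047 (exact permutation test, two-sided, p = 0.667), less than the SD of 0.093 between the untreated samples. A change in the cleaved share of caspase-8 was therefore not detectable with these samples, and the interval of its cleaved form leaves room for a rise of up to 0.22 log2 units.

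PARP, the DNA break sensor and caspase substrate, was at 0.988 and 0.874 in untreated cells and at 1.20 and 1.15 after sCT. Both treated samples were above both untreated ones, and untreated replicate 2 was the lowest, as it was for cleaved caspase-7. The mean rose from 0.931 ± 0.0803 to 1.18 ± 0.0329 (SD, n = 2), a log2 fold change of 0.34 (SE 0.074, 95% interval 0.14 to 0.53, adjusted p = 0.0168), the 42nd highest. The value was 0.25 without untreated replicate 2 (adjusted p = 0.0463) and 0.43 without untreated replicate 1 (adjusted p = 0.0137). Leaving out either sCT sample ended the call, with an adjusted p of 0.106 without replicate 1 and of 0.0736 without replicate 2.

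PAR, the polymer that PARP makes, was at 1.04 and 1.02 in untreated cells and at 1.15 and 1.26 after sCT. The treated samples were higher and also further apart, at 1.10-fold against 1.02-fold. Its log2 fold change was 0.22 (SE 0.062, 95% interval 0.059 to 0.38, adjusted p = 0.0354). The adjusted p was 0.0949 without untreated replicate 1, 0.127 without untreated replicate 2 and 0.140 without sCT replicate 2, so that each of these samples decided the call. It was lost under quantile normalization too (adjusted p = 0.0779). PARG, the enzyme that removes PAR, fell from 0.951 and 1.03 to 0.325 and 0.346, a log2 fold change of -1.56 (adjusted p = 0.000146).

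The 3 rises lay within the range of the loading controls, for cleaved caspase-7 and PARP only because of GAPDH. Over 7 such antibodies, log2 fold changes ran from -0.15 for histone H3 to 0.57 for GAPDH, with 6 of 7 above 0 and a median of 0.13. The next highest control was cyclophilin F at 0.33, below cleaved caspase-7 (0.37) and PARP (0.34) and above PAR (0.22). The others were beta-actin (0.17), the antibody named D-a-Tubulin (0.13), Cox-IV (0.12) and porin (0.082). All 7 were taken by name, and whether they track total protein was not tested. With each sample centred on the 7 controls, taken relative to their own means, the whole panel moved by -0.15 log2 units. Cleaved caspase-7 was then at 0.22 (adjusted p = 0.0882), PARP at 0.19 (adjusted p = 0.133) and PAR at 0.076 (adjusted p = 0.339), so that 0 of the 11 antibodies were called higher in limma, and 1 was higher at an unadjusted p of 0.05. RIP, XIAP and c-IAP2 were called lower under this centring too, at -1.69, -0.80 and -0.34. Over the panel it gave 197 lower and 36 higher, against 148 lower and 94 higher with the levels as deposited. Under quantile normalization, cleaved caspase-7 (0.49, adjusted p = 0.0289) and PARP (0.44, adjusted p = 0.0477) were still called higher. PAR was not (0.29, adjusted p = 0.0779). In the plot of changes by scaling, the falls of RIP and XIAP stay on the same side of 0 with filled symbols throughout.

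**Figure D3:**
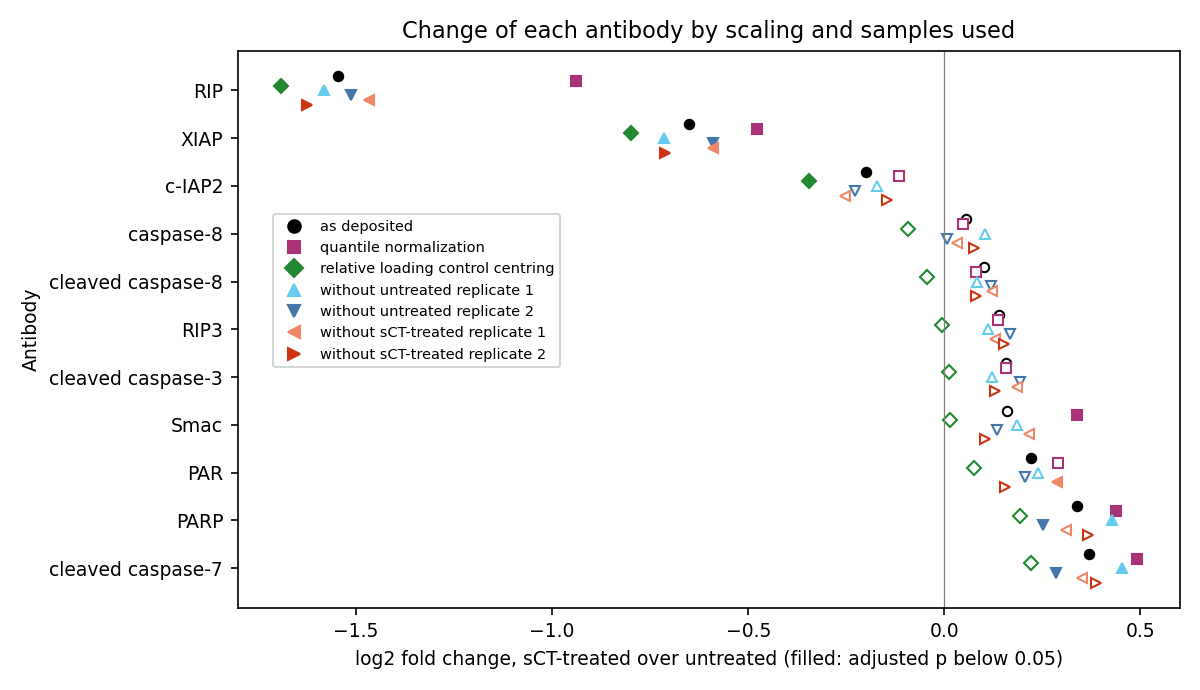
Log2 fold change of each antibody with the levels as deposited, after quantile normalization, after centring on loading controls and without each of the 4 samples, with filled symbols where the adjusted p is below 0.05. RIP and XIAP are filled under all 7 settings, while c-IAP2, cleaved caspase-7, PARP and PAR each lose their call under some of them.

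Ordered by log2 fold change, the 11 antibodies ran from RIP through XIAP and c-IAP2 to total caspase-8, cleaved caspase-8, RIP3, cleaved caspase-3, Smac, PAR, PARP and cleaved caspase-7. The 95% intervals of RIP and XIAP did not overlap, and neither did those of XIAP and c-IAP2. From total caspase-8 upwards, each antibody's interval overlapped that of the next. Likeness of pattern was taken as the root mean square difference of log2 levels, each antibody centred on its mean over the 4 samples. With 2 groups of 2 samples, this measure mostly matches antibodies of similar fold change. Shared regulation was not tested. Cleaved caspase-7 and PARP were among the 2 nearest antibodies to each other (0.0167 log2 units), and both were near glutamate dehydrogenase (0.0134 and 0.0179). RIP was nearest to the kinase Mnk1 (0.0147), then to PARG (0.0290). The nearest to XIAP were GSK-3B (0.0315) and the DNA end resection factor CtIP (0.0383), to c-IAP2 the repair nuclease XPF (0.0177) and phosphorylated PRAS40 (0.0336), and to PAR the mitochondrial chaperone TRAP1 (0.0115) and the cell cycle inhibitor CDKN2A (0.0135).

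**Figure D4:**
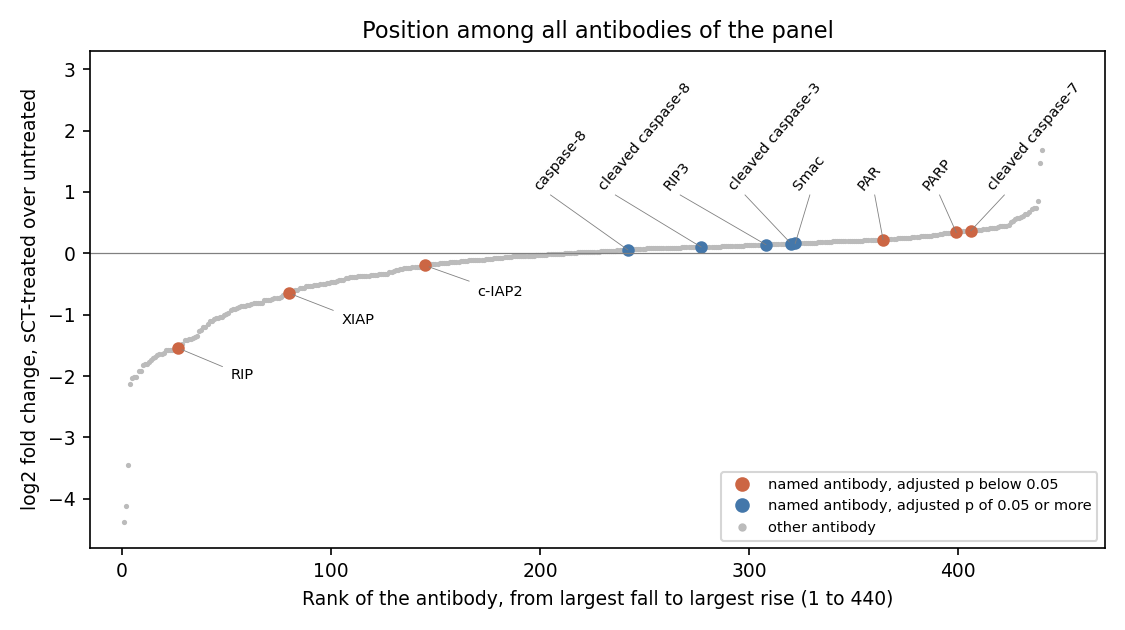
Log2 fold change, sCT-treated over untreated, of all 440 antibodies (grey), ordered from the largest fall to the largest rise, with the 11 named antibodies in orange where the adjusted p is below 0.05 and in blue otherwise. RIP is 27th and XIAP 80th from the left, and the other antibodies sit in the flat middle and right of the curve.

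Other proteins of the same pathways were taken from 4 lists of antibodies, which are described by counts beside the 55.0% called over the panel. Of 10 antibodies to the BCL2 family, which controls the release of mitochondrial proteins such as Smac, 6 were called, 2 lower and 4 higher, with a median of 0.16. BAD phosphorylated at S112 had a log2 fold change of -1.39 (adjusted p = 0.000218), the anti-apoptotic Mcl-1 one of -0.38 (adjusted p = 0.00231) and the anti-apoptotic Bcl-xL one of 0.38 (adjusted p = 0.0138). The list held no antibody to total BAD, so the value for BAD is that of the phosphorylated site and not of the protein. Bcl-xL was 0.847 and 0.816 in untreated cells and 1.01 and 1.15 after sCT. The other antibodies called higher were Bid (0.20, adjusted p = 0.0283), Bax (0.19, adjusted p = 0.0213) and Puma (0.19, adjusted p = 0.0223). Under loading control centring 0 of the 10 were called higher in limma, against 36 of all 440 antibodies. At an unadjusted p of 0.05, 1 of the 10 was higher. Of the 3 antibodies to partners of death receptors and NF-kB, 1 was called. This was granzyme B, a protease of cytotoxic lymphocytes that cuts caspases, at 0.935 and 0.959 in untreated cells and at 1.09 and 1.12 after sCT (log2 fold change 0.23, adjusted p = 0.0126). All cells were LN229 and signal over background is unknown, so whether they held this protease cannot be told. Loading control centring left granzyme B without a call. It gave 197 lower calls over the panel and 1 among the 3, that of MLKL (log2 fold change -0.25, adjusted p = 0.0181). Quantile normalization turned the sign of MLKL, to 0.39 (adjusted p = 0.199). It called 103 of all 440 antibodies higher, and 2 of the 3. These were granzyme B at 0.27 (adjusted p = 0.0377) and the NF-kB subunit p65 phosphorylated at S536 at 0.70 (adjusted p = 0.0146), which was at 0.084 (adjusted p = 0.186) with the levels as deposited.

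A list drawn up for caspase substrates held 14 antibodies. It took p21-activated kinases by family name, PAK1 and PAK4 but not PAK2, so not every entry is an established substrate. Of the 14, 6 were called lower and 2 higher, with a median of -0.14. In limma, 5 were lower and 0 higher after quantile normalization, against 115 lower and 103 higher of all 440. Before adjustment, 2 of the 14 were higher there at a p of 0.05. With loading control centring 8 were lower and 0 higher, also before adjustment, against 197 lower and 36 higher called over the panel. A filter that took out the lowest 10% of the panel by average level over all 4 samples left 12 of the 14. That average includes the sCT-treated samples, so a large fall after sCT can itself take an antibody out. Of the 12, 4 were lower and 2 higher, against 110 lower and 93 higher of the 396 antibodies left. The median was 0.0089, and the loss of its negative sign therefore gives no separate information on antibodies of low level. The translation factor eIF4G was at 0.842 and 0.990 in untreated cells and at 0.0459 and 0.0606 after sCT, and the kinase PAK1 went from 0.871 and 0.876 to 0.249 and 0.289. Their log2 fold changes were -4.11 (adjusted p = 0.000141) and -1.70 (adjusted p = 0.000184). The cell cycle repressor Rb changed by -0.88 as total protein (adjusted p = 0.000294) and by -0.91 at S807/S811 (adjusted p = 0.000702), and the adhesion and Wnt protein beta-catenin by -0.49 (adjusted p = 0.00160). These antibodies are not named for cleaved forms, and whether caspases cut these proteins here was not tested.

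DNA damage proteins around PARP and PAR had 19 antibodies, with 7 called lower and 2 higher and a median of -0.12. Loading control centring gave 12 lower and 2 higher, against 197 lower and 36 higher over the panel. The same filter, with the same limit, left 17 of the 19, with 5 lower, 2 higher and a median of -0.0755. Over the 396 antibodies left, 110 were lower and 93 higher. Beside PARG, the largest falls were those of the repair scaffold 53BP1, from 0.977 and 0.935 to 0.279 and 0.334 (log2 fold change -1.65, adjusted p = 0.000340), and of the checkpoint kinase Chk1, from 1.42 and 1.42 to 0.423 and 0.534 (-1.58, adjusted p = 0.000603). Chk2 phosphorylated at T68 was at -1.06 (adjusted p = 0.000179). As for RIP, the low levels of PARG and 53BP1 after sCT cannot be told from background. H2AX phosphorylated at S139, the mark of DNA double-strand breaks, was 0.988 and 1.05 in untreated cells and 1.10 and 1.10 after sCT, and did not pass the test (log2 fold change 0.11, adjusted p = 0.134, with the sign turned to -0.038 under loading control centring). The other phosphorylated H2AX antibody of the panel, named for S140, was 0.989 and 0.897 in untreated cells and 1.22 and 1.04 after sCT. Its samples did not overlap between groups, and its log2 fold change of 0.26 did not pass the test either (SE 0.098, 95% interval 0.0035 to 0.52, adjusted p = 0.0779). XRCC1, the repair scaffold that PAR recruits, did not pass it either (0.11, adjusted p = 0.118). H2AX, XRCC1, MLKL, p65, Bid, Bax and Puma were named after their values were seen.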

How the data were processed

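RPPA levels were analysed for 2 untreated and 2 sCT-treated LN229 samples. According to the methods, the authors printed serial dilutions of each lysate on nitrocellulose-coated slides, probed each slide with a primary antibody, developed the signal with DAB and quantified spot intensities with Array-Pro Analyzer. The deposited values are linear ratios, 1 for each antibody and sample. How they were made from spot intensities is not given in the sources used here, and spot intensities were not used, so signal over background is unknown. The precision is limited by the number of samples. Levels, all above 0, were transformed to log2 without a pseudocount or filter and fitted over all 440 antibodies (limma 3.58.1, R 4.3.3) by lmFit and eBayes without covariates, on 2 residual and 2.59 prior degrees of freedom. P-values are two-sided and were adjusted over the panel by the Benjamini-Hochberg method. All adjusted p-values are from limma. Differences between 2 antibodies within a sample were compared with an exact permutation test (3 differences, unadjusted).

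The members, lists and tests were chosen with earlier results of these data known. All 11 members were named. Of the lists, up to 3 (BCL2 family) or 5 called antibodies with the largest change were named, and for each called member the 2 antibodies of most similar pattern. The 4 lists and the 7 loading controls were matched by antibody name. The differences of XIAP with c-IAP2 and of RIP with RIP3 were added after the levels were seen. The fits were also run on simulated levels with independent noise, and with fewer and larger changes than most seen in these data. That run does not vouch for the calls made here. The alternatives were linear levels, quantile normalization, median centring, relative loading control centring, an unequal-variance test on linear levels, trend and robust variance estimation, a filter on the lowest 10% of antibodies, each sample left out, the replicate number as a block and a rule of unadjusted p of 0.05 with an absolute log2 fold change of 0.58. Protein sequences were not used here, and 1 antibody that the naming rule took is not reported here.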

Additional observations from a re-analysis of the deposited data

How the results depend on the processing

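Of the 11 antibodies, 6 were called with the levels as deposited, 3 lower and 3 higher. With each sample left out there were 2 to 4, and the number higher was 0 to 2. It was 0 without sCT replicate 2, where 2 were higher at an unadjusted p of 0.05, and 1 without sCT replicate 1. The lone sample of a group is then assumed to vary like the other group. Relative loading control centring called 3, with 0 higher, against 233 called and 36 higher over the panel. The unequal-variance test on linear levels called 0 of the 11 after adjustment, 0 lower and 0 higher, with 2 at an unadjusted p of 0.05, and 1 of all 440, with 155 at an unadjusted p of 0.05. The rule with an absolute log2 fold change of 0.58 gave 2 members, 0 of them higher, and 95 antibodies in all. Linear levels and trend with robust estimation each called 5 of the 11 higher, against 104 and 113 of all 440. Over the panel, 242 were called, 148 to 214 with a sample left out, the lowest without sCT replicate 1 and 158 without sCT replicate 2. Median centring changed no member's call. The filter on the lowest 10% by average level over all 4 samples removed RIP, so it gives no value there. RIP was at 0.964 and 1.01 in untreated cells, so its fall after sCT brought it under the filter.

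Relative loading control centring turned the sign of total caspase-8 (-0.092), cleaved caspase-8 (-0.045) and RIP3 (-0.0067), none of them called. Cleaved relative to total caspase-8 was -0.019 to 0.11 with a sample left out, the lowest without untreated replicate 1, and RIP relative to RIP3 was -1.08 under quantile normalization. The replicate numbers are not stated to pair the samples. Deviations of same-numbered samples from their group means correlated at r = 0.586 across antibodies, which are not independent. LDHA had the largest replicate differences of the panel, 6.46-fold in untreated cells and 5.04-fold after sCT, with replicate 1 higher in both. The panel medians were 1.045-fold and 1.041-fold. The correlation was not computed without LDHA and may rest largely on it. With the replicate block 238 antibodies were called, and 6 of the 11, with PAR lost (adjusted p = 0.0630) and cleaved caspase-3 gained (adjusted p = 0.0408).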
